A study of Mus musculus with 12 samples.

Results

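The clustered replication-dependent histone genes were followed in peak lists of H4K8ac, the acetylation of lysine 8 on histone H4, from oligodendrocyte progenitor cells (OPCs) of neonatal and adult mice. Members were the rows of the 6 peak lists whose gene carries a clustered histone symbol. No row carried an older symbol of the Hist1h to Hist4h kind, so the newer symbols were used (H1f, H2ac, H2bc, H3c or H4c followed by a digit). They gave 29 genes of the 23433 genes named in the lists, and 104 of the 269580 peaks. Of these 29, 24 are protein-coding genes that RefSeq places in the clusters. The other 5 are H1f0, H1f8 and H1f10, which lie outside the clusters, and the pseudogenes H1f11-ps and H2ac5-ps. The newer symbols also miss H4f16, H2aw and H2bu2, the genes formerly named Hist4h4, Hist3h2a and Hist3h2ba. Values are therefore given for all 67 protein-coding genes whose older RefSeq symbol is a clustered one: 6 of class H1, 18 of H2A, 18 of H2B, 12 of H3 and 13 of H4. A gene start was at hand for 63 of them.

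OPCs were sorted from forebrains of PdgfrαH2BEGFP mice, whose reporter labels nuclei green where the receptor gene Pdgfra is active. All groups share this reporter and the crosslinking with paraformaldehyde. Neonatal cells were taken at postnatal day 5 and adult cells at postnatal day 60, with 3 libraries at each age that the labels call biological replicates. The 6 input libraries were not analysed here. In order of replicate, the neonatal lists had 9097, 31189 and 7353 peaks, and adult ones 72278, 72661 and 77002; other values per library follow the same order. Neonatal replicate 2 stands apart from the other neonatal libraries in list length, and the main counts are also given without it. Read depths are unknown.

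Histones package DNA into nucleosomes. H2A, H2B, H3 and H4 form the core, and the linker histone H1 binds the DNA where it enters and leaves. The bulk of each class is made in S phase from many short genes, mostly without introns, which lie in clusters and are switched on together with the help of the coactivator NPAT. Their mRNAs end in a stem-loop bound by SLBP instead of a poly(A) tail. H4K8ac is found at the promoters of active genes, and OPCs keep dividing into adult life.

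The promoters of these genes carry short sequence elements known from histone genes. A RefSeq promoter (GRCm38.p6) was matched for 62 of the 67 genes, with 63 promoters because H2bc6 has 2. Both strands of the 250 bases before the start were searched. The TATA box was searched as TATAAA and, on the other strand, as TTTATA. It was in 29 of 63 promoters (46.0%), against 11.7% of 21045 protein-coding promoters. The box bound by NF-Y was searched as CCAAT and, on the other strand, as ATTGG. It was in 52 (82.5%), against 35.6%. It was in every H1, H2A and H2B promoter, in 8 of 10 H3 promoters and in 3 of 12 H4 promoters. The octamer bound by the factor Pou2f1 was searched as ATTTGCAT and, on the other strand, as ATGCAAAT. It was in 14 (22.2%), against 1.59%. It was in 7 H2A and 7 H2B promoters and in none of class H1, H3 or H4. No searched word contains another. The 120 bases before the start are shown for 5 genes. H4f16 and H2aw are the genes with a peak within 1000 bp of the start in every library. H4c12 had peaks there in all adult and no neonatal libraries. H4c17 and H4c18 are a nearly identical pair with no peak in any library. Each sequence runs 5′ to 3′ along the gene's strand and ends just before the start, and capitals mark the searched words. They lie at chr6:136804432-136804551 (minus strand), chr11:58954565-58954684 (plus), chr13:21750554-21750673 (minus), chr13:21811626-21811745 (plus) and chr13:21832198-21832317 (minus).
H4f16: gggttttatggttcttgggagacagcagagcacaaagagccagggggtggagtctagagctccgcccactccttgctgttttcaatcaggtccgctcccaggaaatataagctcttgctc
H2aw: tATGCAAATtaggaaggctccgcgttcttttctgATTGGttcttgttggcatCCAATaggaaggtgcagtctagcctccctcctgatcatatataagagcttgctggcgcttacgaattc
H4c12: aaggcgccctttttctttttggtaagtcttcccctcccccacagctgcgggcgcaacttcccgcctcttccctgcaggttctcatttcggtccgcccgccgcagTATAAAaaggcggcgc
H4c17: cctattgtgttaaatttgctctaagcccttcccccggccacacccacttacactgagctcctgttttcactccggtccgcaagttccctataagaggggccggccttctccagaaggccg
H4c18: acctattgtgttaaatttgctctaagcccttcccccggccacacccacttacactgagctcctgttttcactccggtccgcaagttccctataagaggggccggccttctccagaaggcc

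H2aw thus holds 1 octamer and a CCAAT box on each strand, H4c12 a TATA box, and the other 3 none of the searched words in these 120 bases. All 3 elements were found both with and without a peak. Of the 31 promoters whose gene had no peak at the start in any library, 51.6% held a TATA box, 87.1% a CCAAT box and 19.4% an octamer. Of the 32 others, 40.6%, 78.1% and 25% did. A match describes letters in this window and is not a binding site.

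Few of these genes had an H4K8ac peak at the start, and more of them had one in adult than in neonatal lists. By the authors' assignment of peaks to genes, which counts as promoter a peak within 3000 bp of a start, promoter peaks were listed for 1, 15 and 3 of the 67 genes in the neonatal libraries and for 19, 14 and 21 in the adult ones. The mean difference was 11.7 genes. The ages overlapped, because neonatal replicate 2 with 15 genes lay above adult replicate 2 with 14. Without neonatal replicate 2 the difference was 16 genes. The same count over all 21631 protein-coding genes was 26.4%, 53.3% and 23.5% in neonatal and 56.3%, 54.4% and 55.2% in adult libraries, and that of the histone genes lay between 1.49% and 31.3%. In sorted cells profiled in bulk, a mark on fewer cells and less of the mark per cell cannot be told apart.

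Peaks near these closely packed genes can be assigned to a neighbour, so each peak was also placed by position. A gene then counted where any peak reached within 1000 bp of its start, a window that takes in the whole of most histone genes. By this measure 2, 20 and 6 of 63 genes had a peak in neonatal and 25, 19 and 29 in adult libraries. The mean of the neonatal libraries was 9.33 ± 9.45 genes and that of the adult libraries 24.3 ± 5.03 (SD, n = 3 each). Without neonatal replicate 2 the neonatal mean was 4 genes. As a share of the genes this was 3.17%, 31.7% and 9.52%, then 39.7%, 30.2% and 46.0%. Over 17275 protein-coding genes the shares were 28.4%, 55.2% and 25.4%, then 57.4%, 55.6% and 56.5%. The histone genes lay below all protein-coding genes in each of the 6 libraries. Of the histone genes 31 of 63 (49.2%) had no peak at the start in any library, against 38.9% of all protein-coding genes, and 16 (25.4%) had one in every adult library, against 54.0%. Of the 4 genes without a start, H3c7 had a peak over or beside the gene in adult replicate 1 and H3c1 in adult replicate 3, and H2bc21 and H4c14 had none in any library.

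**Figure D1:**
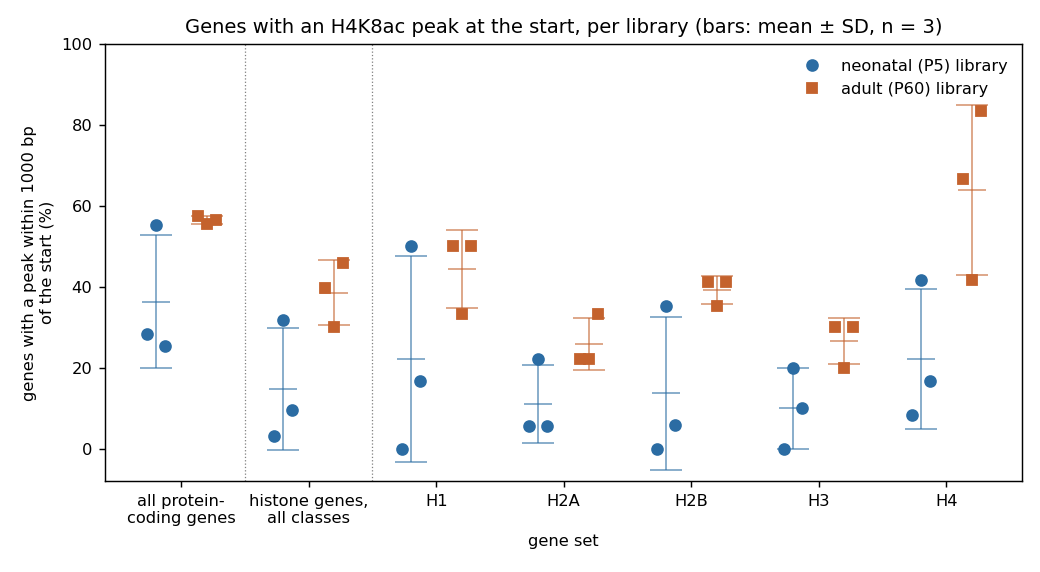
Share of genes (%) with an H4K8ac peak within 1000 bp of the start, for all protein-coding genes, all clustered histone genes and each histone class; circles are neonatal and squares adult libraries, and bars give the mean ± SD of 3 libraries, which can reach below 0. Histone genes of all classes lie at 3.17% to 31.7% in neonatal and 30.2% to 46.0% in adult libraries, below all protein-coding genes in every library.

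Neighbouring genes often shared a peak, so these genes are not independent of each other. In adult replicate 3, 32 peaks reached the 29 genes, and 5 of the peaks reached more than 1 gene and took in 11 genes. In neonatal replicate 2, 23 peaks reached the 20 genes, and 3 of them were shared by 6 genes. The pairs H2ac8 and H2bc8, H2ac6 and H2bc4, and H2bc3 and H3c3 shared a peak in both of these libraries. The peaks between H3c3 and H2bc3 were assigned by the authors to the pseudogene H2ac5-ps, which lies between them.

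The linker histone genes split into those with peaks and those without. H1f2, H1f3 and H1f1 encode somatic linker histones. Within 1000 bp of the start of H1f2, at chr13:23738807-23739531, peaks covered 0, 770 and 0 bases in neonatal and 658, 525 and 983 bases in adult libraries. Every adult library had a peak there, but neonatal replicate 2 lay within the adult range. At H1f3 the covered bases were 0, 359 and 0 in neonatal and 429, 236 and 755 in adult libraries, with the same kind of overlap.

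At H1f1 they were 0, 465 and 295 in neonatal and 268, 0 and 756 in adult libraries. The ages did not separate at this gene, since adult replicate 2 and neonatal replicate 1 both had none. H1f4 and H1f5, which also encode somatic linker histones, and the testis gene H1f6 had 0 covered bases in all 6 libraries. The exact two-sided permutation p of 3 against 3 libraries was 0.3 for H1f2, 0.2 for H1f3 and 1 for H1f1 (Benjamini-Hochberg adjusted over 17275 genes 0.585, 0.404 and 1). In the class as a whole 0, 3 and 1 of 6 genes had a peak in neonatal and 3, 2 and 3 in adult libraries.

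For H2A, which pairs with H2B in the nucleosome core, 1, 4 and 1 of 18 genes had a peak in neonatal and 4, 4 and 6 in adult libraries. H2aw, at chr11:58954685-58955192, had the most neonatal coverage of its class. Peaks covered 345, 1068 and 234 bases in neonatal and 1389, 1456 and 1616 bases in adult libraries. All 6 libraries had a peak in this window, and every adult value lay above every neonatal one (exact permutation p = 0.1, the smallest this design can give, adjusted p = 0.223). Past the start, peaks covered 0, 374 and 0 bases in neonatal and 673, 694 and 825 in adult libraries. This part of the window reaches beyond the end of the gene. In neonatal replicates 1 and 3 the only peaks of the window lay before the start, and the authors assigned them to the neighbouring pseudogene H2bu1-ps. Neonatal replicate 2 alone had a peak assigned to H2aw, while the adult peaks past its start were assigned to Gm44313. The other 5 H2A genes with a peak in any library had at most 372 covered bases. Of these, H2ac8 had 0, 205 and 0 bases in neonatal and 372, 223 and 190 in adult libraries, which overlap. In H2A 12 of 18 genes had no peak at the start in any library, among them the testis gene H2ac1.

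For H2B, 0, 6 and 1 of 17 genes had a peak in neonatal and 7, 6 and 7 in adult libraries. H2bu2 and H2bc3 had the most neonatal coverage. H2bu2 lies in the same block as H2aw, at chr11:58948911-58949372, and had 0, 736 and 0 covered bases in neonatal and 1328, 1140 and 1763 in adult libraries. The ages did not overlap there (exact permutation p = 0.1, adjusted p = 0.223). H2bc3, at chr13:23746734-23747223, had 0, 554 and 182 in neonatal and 395, 784 and 1111 in adult libraries, and neonatal replicate 2 lay within the adult range (exact permutation p = 0.2, adjusted p = 0.404). H2bc14 was lower at both ages but separated them, with 0, 184 and 0 bases in neonatal and 255, 355 and 237 in adult libraries. The testis gene H2bc1, like its neighbour H2ac1, had none in any library.

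For H3, 0, 2 and 1 of 10 genes had a peak in neonatal and 3, 2 and 3 in adult libraries. H3c3, at chr13:23745042-23745521, had the most neonatal coverage, with 0, 509 and 182 bases in neonatal and 395, 769 and 770 in adult libraries. This peak is the one it shares with H2bc3, and the ages overlapped. H3c6 did separate them, with 0, 229 and 0 bases in neonatal and 474, 665 and 825 in adult libraries.

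H4 is the histone that carries the acetylation mapped here, and its genes had peaks more often than those of the other core classes in adult lists, at 8, 5 and 10 of 12 genes. In neonatal lists 1, 5 and 2 of 12 had one. This difference between classes was not tested. H4f16, at chr6:136803993-136804431, had 277, 440 and 226 covered bases in neonatal and 973, 1653 and 1667 in adult libraries. It had a peak in every library, and the lowest adult library had more than the highest neonatal one (exact permutation p = 0.1, adjusted p = 0.223). H4c12, at chr13:21750145-21750553, had 0, 0 and 0 bases in neonatal and 379, 236 and 496 in adult libraries. It was the only gene of the 63 with a peak in all adult and no neonatal libraries (1.59%, against 3.51% of all protein-coding genes, and 4.73% by the authors' assignment). No histone gene had the reverse pattern, which 0.0232% of all protein-coding genes showed by position and 0.139% by assignment. Without neonatal replicate 2 the adult-only count was 10 by the authors' assignment, and without adult replicate 2 it was 3. The share over all protein-coding genes is not at hand for these settings, so these counts show no trait of the histone genes. The promoter of H4c12 shares 194 of 300 bases with that of H4c11, in runs of at least 30 identical bases, so reads of the pair may not be told apart. H4c11 had 0, 157 and 0 bases in neonatal and 660, 684 and 471 in adult libraries.

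**Figure D2:**
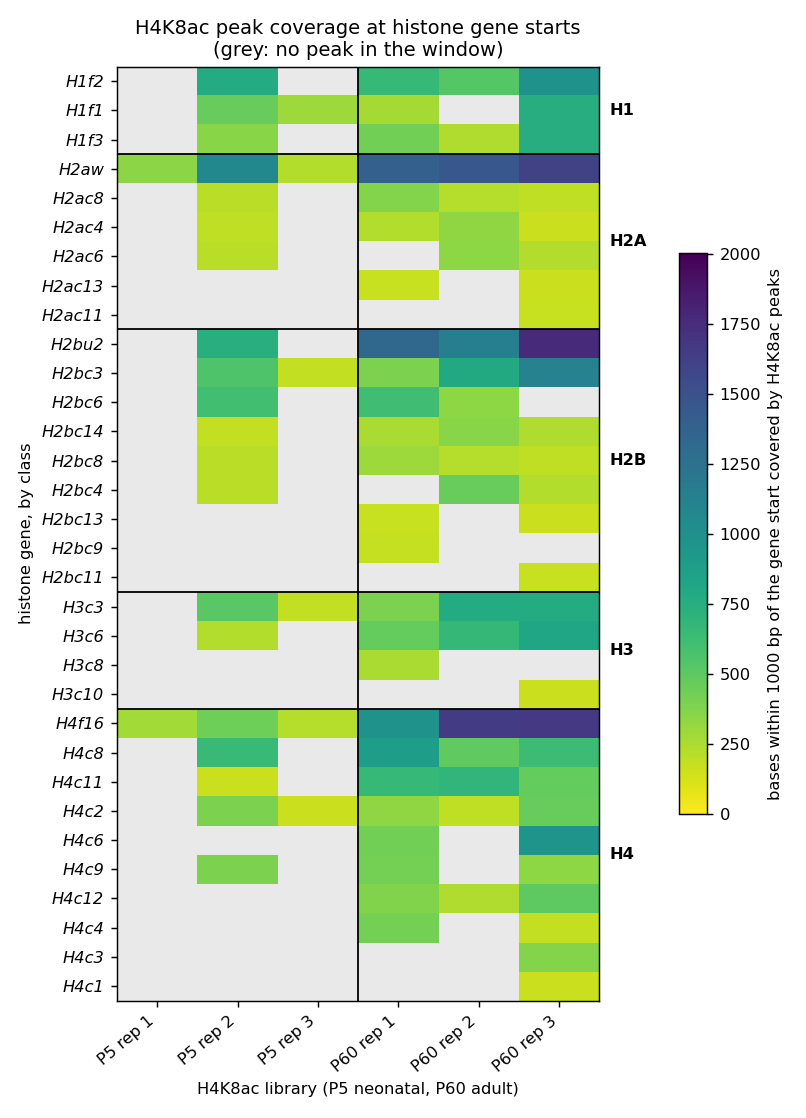
Bases within 1000 bp of the gene start covered by H4K8ac peaks (colour, 0 to 2001 bases) for the 32 histone genes with a peak in any library (rows, by class) in each of the 6 libraries (columns); grey marks no peak. H2aw and H4f16 are covered in every library. H4c12 is the only gene covered in all adult and no neonatal libraries, and neonatal replicates 1 and 3 are grey at most genes.

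Coverage of the ages did not overlap at 7 of the 63 genes, H2aw, H2bc14, H2bu2, H3c6, H4c11, H4c12 and H4f16, all higher in adult cells (11.1%, against a background of 44.8% of 17275 protein-coding genes). None was lower in adult cells, a direction found at 0.104% of all genes. Each of the 7 had an exact permutation p of 0.1, the smallest possible, and an adjusted p of 0.223, so none could pass 0.05 in this design. The count rose to 16 without neonatal replicate 2, where the background was 52.9%, to 11 without adult replicate 1 (background 46.9%) and to 12 without adult replicate 2 (background 48.0%). Genes with more than 1 listed start have more windows in which a peak can fall. Among the 14514 protein-coding genes with 1 start the background was 42.0%, and 11.3% of the 62 histone genes of this kind were called.

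The age difference in the number of marked histone genes depended on the length of the lists. When each list was limited to its 7353 strongest peaks by the authors' p-value, 2, 7 and 6 of 63 genes had a peak at the start in neonatal and 1, 3 and 1 in adult libraries. The direction was then the opposite, at -3.33 genes, and the ages overlapped. The authors' assignment gave -1.67 genes. All protein-coding genes stood at 24.8%, 29.8% and 25.4% in neonatal and 29.4%, 25.7% and 26.5% in adult libraries. H4f16 was the only histone gene with such a strong peak in every library, with 277, 440 and 226 bases in neonatal and 973, 1062 and 991 in adult libraries. In the H2aw window the strongest peaks covered 345, 225 and 234 bases in neonatal and 0 in each adult library, and those of neonatal replicates 1 and 3 are the peaks assigned to H2bu1-ps. H3c3 and H2bc3, through their shared peak, were reached in neonatal replicates 2 and 3 and adult replicate 2.

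Within their own lists most histone promoter peaks ranked below the typical promoter peak. Each peak's fold enrichment, p-value and q-value is as the authors deposited it. The median share of a list's peaks with a weaker p-value was 51.6%, 44.1% and 46.3% for histone promoter peaks in adult replicates 1, 2 and 3, and 66.6%, 65.0% and 67.8% for all promoter peaks. In neonatal replicate 2 it was 54.2% against 61.7%, and in neonatal replicate 3, with 3 histone peaks, 35.9% against 52.6%. Neonatal replicate 1 had 1 such peak, at 59.7% against 54.4%. Histone promoter peaks were also narrower, with median widths of 357, 236 and 374 bp in adult libraries against 469, 469 and 590 bp. H4f16 was the exception at the strong end, at 95.0%, 97.2% and 96.7% in adult libraries with folds of 14.4, 12.5 and 15. In neonatal replicates 1, 2 and 3 its main peak stood at 59.7%, 96.3% and 35.9%.

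At the pseudogene H2ac5-ps promoter peaks had folds of 11.6, 10.8 and 6.81 in adult replicates 1, 2 and 3. They were at 9.37 and 4.80 in neonatal replicates 2 and 3, and none was listed in neonatal replicate 1. At H4c12 the adult folds were 3.30, 2.79 and 3.54, at 9.88%, 7.26% and 25.7% of their lists, so this adult-only peak was among the weaker ones.

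In adult libraries coverage was highest just past the start, as at other genes, but reached fewer starts. Peaks covered 25%, 17.2% and 25% of the 64 histone starts at 100 bp past the start, their highest point. For all protein-coding genes the highest point was 49.6%, 48.0% and 50.2%, at 150 bp past the start. In neonatal replicate 2 the highest points were 15.6% and 43.4%.

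**Figure D3:**
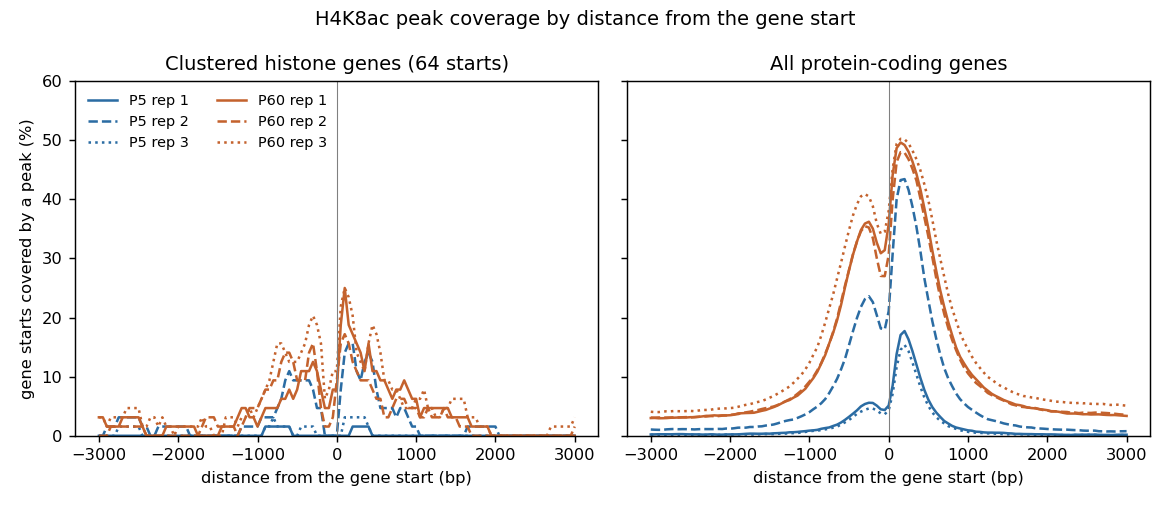
Percent of gene starts covered by an H4K8ac peak (y axis) against distance from the start in bp (x axis, positive within the gene) for the clustered histone genes and for all protein-coding genes, 1 line per library. Adult lines reach 17.2% to 25% at histone starts and 48.0% to 50.2% at all protein-coding starts.

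The clusters also differed from each other. The genes lie in 7 blocks, split where neighbours are over 100 kb apart: 4 on chromosome 13 (the Hist1 cluster, with 18, 5, 29 and 2 genes, here A to D in map order), 1 on chromosome 3 (Hist2, 10 genes), 1 on chromosome 11 (Hist3, 2 genes) and 1 on chromosome 6 (Hist4, H4f16 alone). Peaks covered 11.4%, 18% and 9.27% of the chromosome 6 block in neonatal and 39.9%, 74.3% and 78.3% in adult libraries. They covered 4.17%, 22.0% and 2.83% of the chromosome 11 block in neonatal and 38.7%, 38.5% and 54.9% in adult libraries. In both small blocks every adult library lay above every neonatal one, and the same held for the genome as a whole.

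Block C of chromosome 13, the largest, had 0%, 2.11% and 0.270% of its span covered in neonatal and 3.69%, 2.85% and 4.83% in adult libraries, which do not overlap either. There 0, 14 and 4 of 27 genes had a peak at the start in neonatal and 16, 13 and 17 in adult libraries. Block A had 0%, 0.275% and 0%, then 1.18%, 1.03% and 1.10%, with at most 6 of its 18 genes reached in any library. In block B the ages overlapped, at 0%, 3.73% and 0% in neonatal and 3.97%, 0% and 4.77% in adult libraries. Over all blocks together the covered share was 0.143%, 1.83% and 0.251% in neonatal and 3.38%, 2.98% and 4.52% in adult libraries. The genome as a whole had 0.116%, 0.537% and 0.0913%, then 1.64%, 1.73% and 2.38%. The sum over the blocks lay above the genome share in each library, but in neonatal replicate 1 it came from the chromosome 11 and 6 blocks alone. The blocks hold 67 genes in 436 kb, while the genome share also takes in long stretches without genes, so these shares are not alike. Block A, block D and the chromosome 3 block lay below the genome share in every library. The mean difference of the ages over all blocks was 2.89 percentage points, and it was 0.0669 when lists were limited to equal length.

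**Figure D4:**
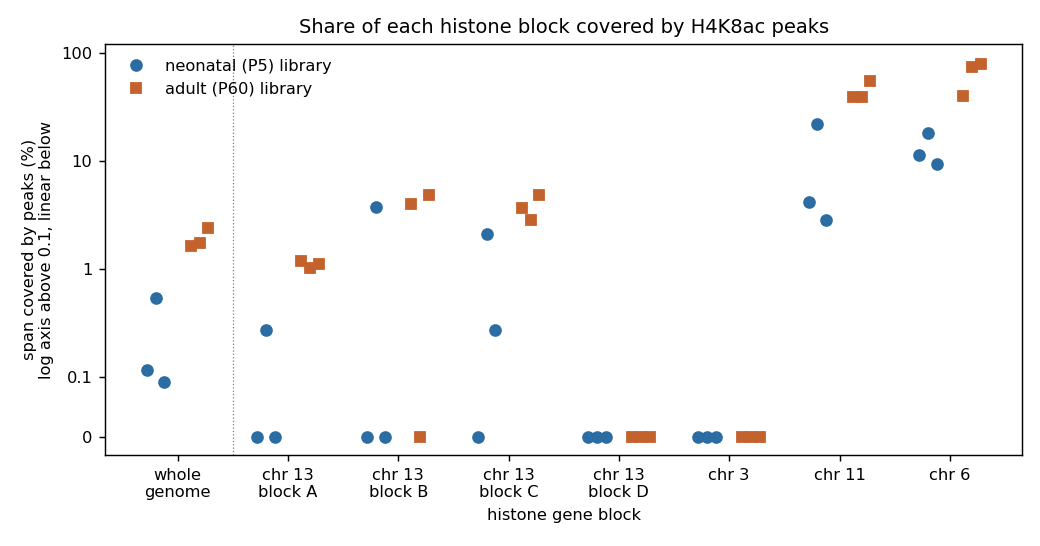
Percent of each block of histone genes, and of the whole genome, covered by H4K8ac peaks in neonatal (circles) and adult (squares) libraries, on an axis that is logarithmic above 0.1% and linear below. The chromosome 3 block and block D of chromosome 13 are at 0 in all 6 libraries, and the chromosome 6 block reaches 39.9% to 78.3% in adult libraries.

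The whole Hist2 block was without a peak. All 10 of its genes, among them the H2A genes H2ac18 and H2ac19 and the H3 genes H3c13, H3c14 and H3c15, lie in a stretch with no peak in any of the 6 lists, chr3:96185949-96414276 (228 kb), together with Bola1 and Fcgr1. Another such stretch, chr13:21750943-21944718 (194 kb), begins just past the adult peaks of H4c12 and holds 12 histone genes of block A, H4c17 and H4c18 among them. Another, chr13:23764294-24044965 (281 kb), holds the testis genes H2bc1 and H2ac1 and 6 other protein-coding genes. Stretches of at least 50 kb without a peak held 23 of the 63 histone gene starts (36.5%), against 34.2% of all protein-coding gene starts. At 100 kb or more it was 22 (34.9%) against 28.3%, and at 190 kb or more, a limit chosen after these stretches were seen, 22 (34.9%) against 22.6%.

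Nearly identical copies were common among the genes without a peak. Of the 31 promoters with no peak in any library, 10 shared at least 150 of 300 bases with another promoter in runs of 30 or more identical bases. Of the 32 with a peak 2 did, H4c11 and H4c12. H4c17 and H4c18, printed above, shared 285 bases, H3c14 and H3c15 284, and H2ac18 and H2ac19 219. How reads that match several places were treated is not given in the sources used here, so values at these copies are uncertain, and the part this plays in the empty stretches was not tested. Among the 12 genes without a peak in the chromosome 13 stretch, H1f5, H3c11, H2ac15, H2bc15, H2ac22 and H2bc22 shared no such run with another promoter. Only promoters of 300 bases were compared. The rest of each gene was not, so these genes may still hold stretches that match other genes.

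The authors' deposited table of differential sites, each 400 bp wide and with an adjusted p-value under 0.05, gave the same direction. Its signs were read from the peak lists: 85.0% to 96.7% of positive sites overlapped a peak in each adult library and 10.3% to 27.8% in each neonatal one, so positive means higher in adult cells. By the authors' deposited table, 8 of the 63 histone genes had a site at the start (12.7%), all higher in adult cells, against a background of 46.0% of protein-coding genes. None had its site lower in adult cells, against 0.342%. Taking the site with the smallest p-value at each of these 8 genes, log2 fold changes in the authors' deposited table ran from 1.25 to 2.23 with a median of 1.44, against 1.60 over the 8014 protein-coding genes with a site at the start and 2.41 over all 43888 sites. That table and the peak lists come from the same libraries and are not independent.

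The sites with the highest values were in the windows of H2aw, H4c6 and H4f16. In the authors' deposited table the H2aw site at chr11:58955549-58955948 had a log2 fold change of 2.50 (adjusted p 0.0120). It lies beyond the end of H2aw, where peaks of adult replicates 1 and 3 were assigned to Gm44313. The site over H2aw itself, chr11:58954646-58955045, had 1.43 with an adjusted p of 0.00327, per the authors' deposited table. At H4c6 a site over the gene, chr13:23551319-23551718, had 2.23 with an adjusted p of 0.00385, per the authors' deposited table, and peaks covered 425, 0 and 966 bases in adult lists and none in neonatal ones. The H4f16 site before the start, chr6:136804726-136805125, had 2.07 with an adjusted p of 0.0128, per the authors' deposited table. The lowest values were 0.92 at an H2aw site before the start, 1.19 at H2bu2 and 1.25 at the H4f16 site over the gene, per the authors' deposited table. The sites in the H2aw window alone thus spanned the whole range. H4c12 had 1.45 (adjusted p 0.00941), H3c6 1.33, H4c8 1.38 and H4c4 1.81 in the authors' deposited table.

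Genes that supply or handle histones were counted in the same way. Of the list of histone mRNA supply, which holds transcription factors, cyclins and mRNA processing factors, 16 of 19 had a start, and 10, 15 and 7 of these had a peak in neonatal and 16, 16 and 16 in adult libraries. Coverage did not overlap at 15 of the 16, all higher in adult cells, against the 44.8% background. At Npat, the coactivator of the clusters, peaks covered 157, 619 and 0 bases in neonatal and 1039, 1206 and 1356 in adult libraries. At Slbp, which binds the stem-loop, they covered 174, 939 and 444, then 1141, 1050 and 1623. The authors' deposited table had a log2 fold change of 2.22 at Npat and 1.42 at Slbp, and a median of 1.72 over 13 genes of the list.

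A further list of 6 genes held the histone chaperones Asf1a, Asf1b, Chaf1a, Chaf1b and Nasp and the histone acetyltransferase Hat1. None of the 6 had a peak at the start in neonatal replicate 1 or 3. All 6 had one in neonatal replicate 2, and 6, 5 and 5 in adult libraries. Coverage of the ages did not overlap at 5 of the 6, all higher in adult cells, against the 44.8% background. Of all protein-coding genes 28.4%, 55.2% and 25.4% had a peak in neonatal and 57.4%, 55.6% and 56.5% in adult libraries. For 5 of these genes the authors' deposited table held sites at the start, and their log2 fold changes had a median of 2.11. Among 10 replication-independent variants, histone genes outside the clusters that are expressed through the cell cycle, 6, 10 and 6 had a peak in neonatal and 10, 10 and 10 in adult libraries. At H1f0, a linker histone of cells that have left the cycle, peaks covered 475, 1266 and 729 bases in neonatal and 1548, 1439 and 1672 in adult libraries. Of the clustered linker genes, H1f1, H1f2 and H1f3 had peaks in libraries of both ages, and H1f4, H1f5 and H1f6 had none.

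The label of the cells was checked on marker genes. Pdgfra had a peak at the start in every library, with 342, 941 and 156 covered bases in neonatal and 224, 314 and 285 in adult libraries, and Olig2 had 0, 907 and 235, then 1829, 1742 and 2001. Among the other OPC genes with a start, the ages overlapped: Ptprz1 had 194, 1650 and 622 bases in neonatal and 491, 0 and 485 in adult libraries, and Cspg4 had 0, 1851 and 0, then 167, 545 and 1310. The oligodendrocyte genes Mog, Mag, Mobp and Opalin, 4 of 4 with a start, had no peak in neonatal libraries. Their summed covered bases were 6232, 6265 and 6871 in adult libraries. The same ages separate the histone genes named above, and the part of oligodendrocytes or their precursors in those values was not tested. The microglial genes Cx3cr1, P2ry12 and Aif1 were at 0 in all libraries. Of 5 vascular genes 2, 1 and 2 had a peak in adult and none in neonatal libraries, with Kdr at 490, 501 and 1010 bases. Of 5 neuronal genes 0, 3 and 1 had one in neonatal and 3, 1 and 1 in adult libraries, and of 5 astrocyte genes 2, 4 and 0, then 2, 2 and 2. In each of these lists 1 of 5 genes did not overlap between the ages, higher in adult cells, against a background of 44.8% of protein-coding genes. Tubb3 had 0, 422 and 0 bases in neonatal and 2001, 1669 and 1788 in adult libraries. Slc1a3 had 167, 390 and 0, then 973, 1155 and 1775. At the neuronal gene Syt1 the authors' deposited table had a log2 fold change of -1.97, lower in adult cells.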

How the data were processed

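H4K8ac ChIP-seq peaks were analysed in 6 libraries. Per the submitters' processing notes, tools were Trim Galore, Bowtie2 2.4.5, SAMtools, deepTools, MACS2, DiffBind and ChIPseeker, with build GRCm38. Roles and parameters are not given in the sources used here. The authors' deposited lists give each peak, called per library, a score, a fold enrichment (a linear ratio), and a p-value and q-value, both as −log10, per the file headers. The authors' deposited table gives a log2 fold change, p-value and adjusted p-value per site, read from its unnamed columns by their values.

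Starts came from RefSeq GRCm38.p6, and 1 (H2bc4) from the lists. H2bc21, H4c14, H3c7 and H3c1 had none and were checked by gene body. Bases covered by peaks within 1000 bp of a start were tested between ages by exact two-sided permutation (20 arrangements, smallest p 0.1) and adjusted by Benjamini-Hochberg over the 17275 protein-coding genes with a start, in place of all listed genes, since covered bases need a start. A gene was called where the ages did not overlap. Adult-only genes had a peak in all adult and no neonatal libraries.

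Values are given by gene for each H1 gene, the core genes with the most neonatal coverage, adult-only genes, the 3 highest and lowest differential sites and testis genes. Many core genes tie at 0 adult bases and are given as counts. H2ac8, H2bc14, H3c6, H4c11, H4c4, H4c8, Npat, Slbp and H1f0 were named after their values were seen. Members and lists were chosen with earlier results of these data known. Python 3.11.15, numpy 2.4.6, pandas 2.3.3 and scipy 1.17.1 were used, and the code was tested on simulated data.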

Additional observations from a re-analysis of the deposited data

How the results depend on the processing

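The mean difference in histone genes with an assigned promoter peak, 11.7, stayed between 9 and 16 when each library was left out. It turned to -1.67 at equal list length and to -3.33 at equal list length by position, the latter chosen after seeing the data, as were the position count without neonatal replicate 2, any peak over or within 1000 bp of the gene and the background of genes with 1 start. At equal list length the genes not overlapping between ages became 1 higher and 1 lower in adult cells (7 and 0 with whole lists), each 1.59% of 63 against 16.7% and 1.69% of all protein-coding genes, adult-only genes 0 and the difference in cluster coverage 0.0669 percentage points. Shorter lists hold fewer peaks by construction, and the cause beyond that was not tested. Leaving out each library gave 7 to 16 genes higher, 0 lower, 1 to 10 adult-only, 0 neonatal-only, and a coverage difference of 2.44 to 3.43. For the adult-only and neonatal-only counts, the share over all genes is not at hand at these settings. Of the 8 genes in the authors' deposited table of sites, 2 had an adjusted p under 0.005. The share over all protein-coding genes is not at hand at this limit, so the drop shows no trait of the histone genes. With the replicate numbers as a block, 12 genes (19%) were called higher, against 47.0% of all protein-coding genes and 7 without it, and the gene difference was 11.7. Deviations of same-numbered libraries had correlations of 0.00740, -0.196 and -0.141, and those of other pairs ran from -0.134 to 0.193. With 3 libraries at each age, these values cannot show whether the numbers pair the samples. Read depth is unknown, and a gene without a peak may still carry the mark below the authors' limit.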
